A study of Mus musculus with 9 samples.

Results

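The EGF receptor family and its ligands were described in the mSGc line and in IMOK. The members are 10 genes, taken by symbol from the 23366 entries of the deposited count tables, and each symbol matched 1 entry. They are 3 receptor genes (*Egfr*, *Erbb2* and *Erbb3*) and 7 ligand genes (*Areg*, *Ereg*, *Hbegf*, *Tgfa*, *Btc*, *Epgn* and *Egf*). mSGc is a spontaneously immortalized epithelial line grown from the submandibular glands of 12-week-old male C57BL/6 mice. IMOK are oral keratinocytes of 12-week-old C57BL/6 mice that also became immortal in culture without an added gene. RNA-seq was done on 6 mSGc libraries and on 3 IMOK replicates. The mSGc libraries came from passages 2 and 4 in serum free media (SFM, labelled progenitor media), and from passages 10 and 25 in both SFM and serum containing media (SCM, labelled differentiating media), with 1 library for each condition. Both media contain added human EGF, at a higher dose in SCM. SFM also has FGF, N2 supplement, insulin and dexamethasone. SCM has serum, retinoic acid, hydrocortisone, thyroid hormone, insulin, transferrin and selenite. IMOK were grown in their own medium, whose composition was not used here. The labels call the IMOK libraries early passage, whereas the study's text sets them at the passage of the P10 cells. Each line is a single line, so that differences between mSGc and IMOK cannot be told apart from those of tissue of origin, medium or experiment.

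The EGF receptor is a receptor tyrosine kinase that pairs with itself or with a relative when a ligand binds, and passes the signal on through RAS and ERK to growth and survival. ERBB2 binds no known ligand and serves as the favoured partner, while ERBB3 binds neuregulins, has little kinase activity of its own and recruits PI3 kinase. The ligands are made as membrane proteins and cut loose by metalloproteases, and the male mouse submandibular gland is a classical source of EGF itself, which its granular convoluted tubules make and secrete.

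The libraries held 6237884 to 18444963 counts in genes. Levels are given as transcripts per 1000000 (TPM), which take the length of each gene entry into account, and intervals cover counting error only. All 7 epithelial markers looked at, among them *Krt5*, *Krt14* and *Cdh1*, had at least 1 TPM in every library. The summed fibroblast markers reached 18.6 TPM in P2 and stayed between 0.32 and 6.41 TPM in the other libraries, while endothelial and leukocyte markers each summed to under 1 TPM everywhere. IMOK replicate 1 stood apart from the other two IMOK libraries. A chi-square per degree of freedom over genes was 159 and 190 between replicate 1 and replicates 2 and 3, against 22.5 between replicates 2 and 3. The fold changes of the members against IMOK are therefore given with and without replicate 1. No source says that the libraries came from separate cultures, so p-values measure only the spread between these libraries. In bulk RNA, fewer cells that express a gene and less RNA per cell cannot be told apart.

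4 of the ligand genes, *Epgn*, *Ereg*, *Areg* and *Btc*, lie side by side within 375 kb of chromosome 5 (mm9). *Epgn* spans chr5:91456543-91464238, *Ereg* chr5:91503643-91522675 and *Areg* chr5:91568641-91577458, all on the plus strand, and *Btc* lies on the minus strand at chr5:91786287-91832020. *Egf* is on the minus strand at chr3:129380493-129458240 and *Tgfa* on the plus strand at chr6:86145245-86225443. Of the receptors, *Egfr* (chr11:16652206-16813910) and *Erbb2* (chr11:98273798-98299030) are on the plus strand and *Erbb3* (chr10:128006424-128026557) is on the minus strand.

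The 250 bases before the annotated start are shown for 3 ligand genes. *Areg* was the ligand with the highest TPM in most libraries. *Epgn* lies in the same cluster, beyond *Ereg*, and *Egf* is the ligand that differed most between mSGc libraries. The sequences are RefSeq's on GRCm38.p6, a later build than that of the counts, and 7 of the 10 members matched an entry of the promoter table. They read 5′ to 3′ on the gene's own strand, with a TATA box (TATAAA) and a cyclic AMP response element (TGACGTCA) in capitals. *Areg* is chr5:91139349-91139598 (plus strand), *Epgn* is chr5:91027267-91027516 (plus strand) and *Egf* is the first of 2 entries, chr3:129755323-129755572 (minus strand).
Areg: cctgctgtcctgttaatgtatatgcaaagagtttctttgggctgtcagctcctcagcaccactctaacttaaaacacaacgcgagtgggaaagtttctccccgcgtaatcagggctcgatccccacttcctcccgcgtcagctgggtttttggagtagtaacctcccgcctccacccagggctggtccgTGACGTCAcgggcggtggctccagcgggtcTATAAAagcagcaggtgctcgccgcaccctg
Epgn: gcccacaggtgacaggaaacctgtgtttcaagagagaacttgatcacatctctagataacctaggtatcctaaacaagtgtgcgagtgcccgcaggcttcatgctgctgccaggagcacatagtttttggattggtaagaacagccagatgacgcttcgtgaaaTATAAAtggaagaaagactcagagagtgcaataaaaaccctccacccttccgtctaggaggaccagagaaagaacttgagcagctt
Egf: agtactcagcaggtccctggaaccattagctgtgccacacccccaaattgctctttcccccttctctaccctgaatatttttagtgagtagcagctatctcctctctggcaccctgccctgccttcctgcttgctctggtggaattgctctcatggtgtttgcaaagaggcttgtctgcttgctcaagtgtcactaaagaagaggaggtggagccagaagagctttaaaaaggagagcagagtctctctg
The *Areg* window held a TATA box that began 31 bases before the start and a cyclic AMP response element that began 61 bases before it. The *Epgn* window held a TATA box 86 bases before the start, and the *Egf* window held none of the motifs searched. Over all 32851 windows of the same length, on both strands, 12.4% held TATAAA, 1.55% held TGACGTCA and 6.75% held TGANTCA, the AP-1 site, which none of the 7 members' windows held. These matches are descriptions of the letters and were not tested as sites.

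**Figure D1:**
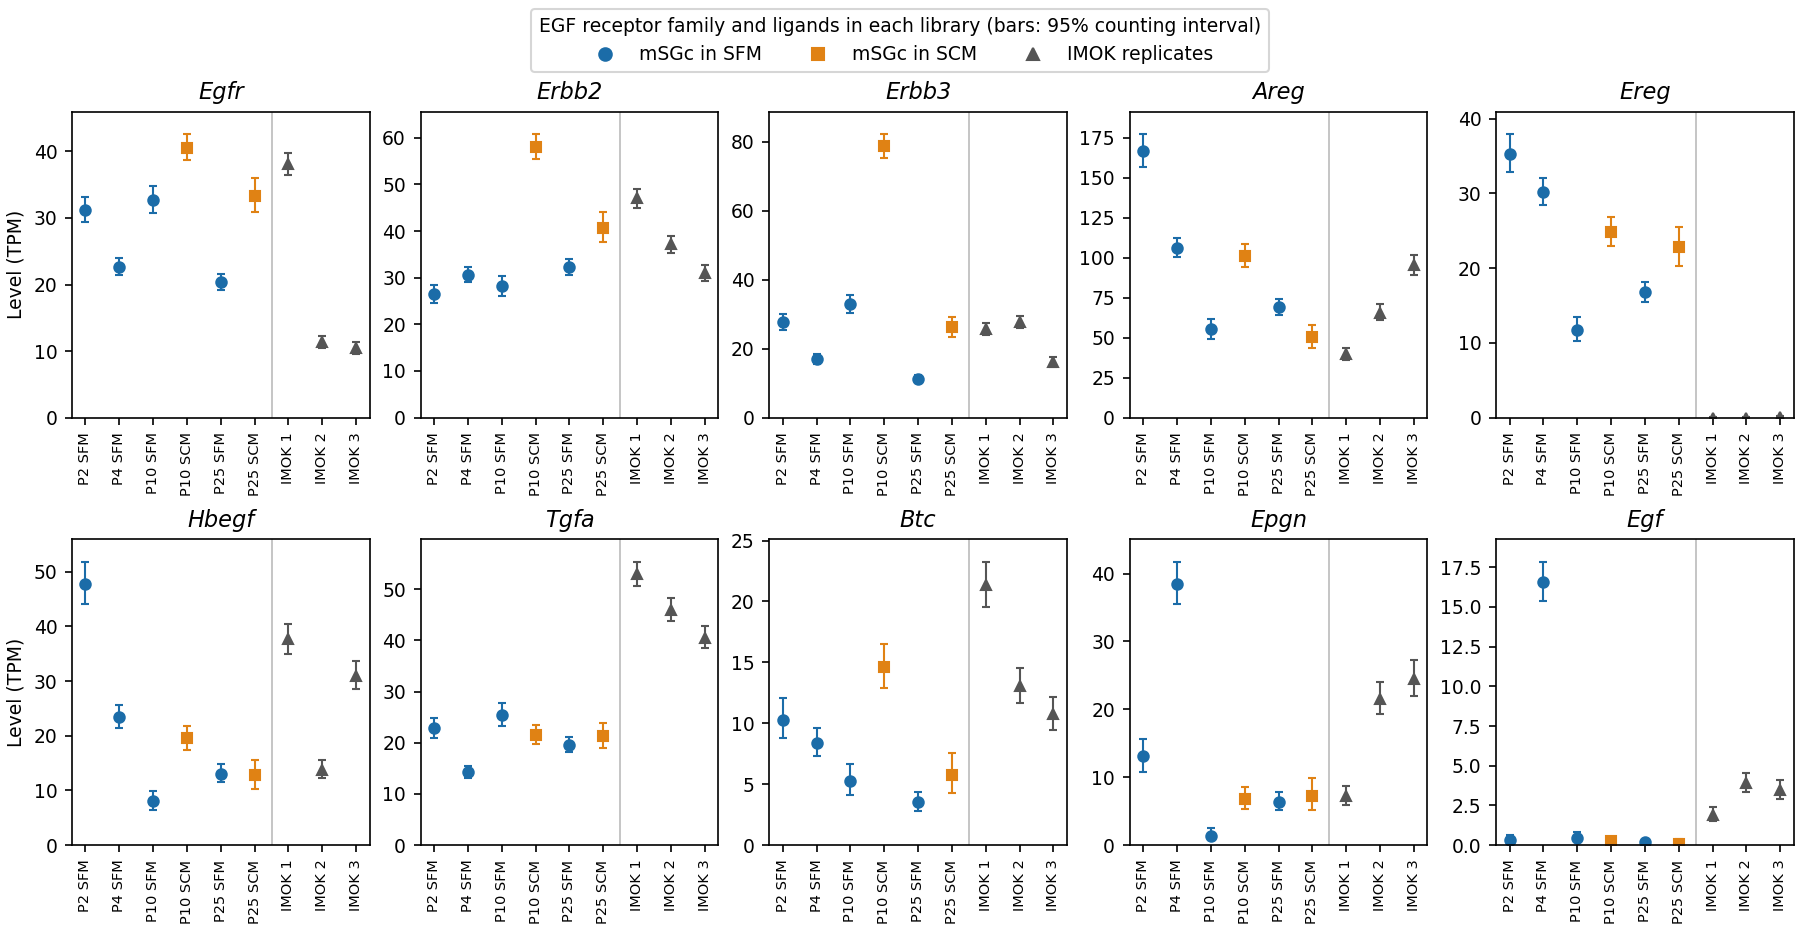
Level of each receptor and ligand gene (TPM, linear axes that start at 0) in the 6 mSGc libraries, in SFM (circles) and SCM (squares), and in the 3 IMOK replicates (triangles), with the 95% counting interval of each library. *Ereg* was between 11.8 and 35.3 TPM in mSGc and at most 0.0603 TPM in IMOK, and *Egf* stood at 16.6 TPM in P4 SFM and below 0.5 TPM in the other mSGc libraries.

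*Egfr* encodes the receptor that these ligands bind. Its level was 31.2 TPM in P2, 22.7 in P4, 32.7 in P10 SFM, 40.6 in P10 SCM, 20.4 in P25 SFM and 33.3 in P25 SCM. In IMOK it was 38.0, 11.4 and 10.4 TPM in replicates 1, 2 and 3. Replicates 2 and 3 lay below every mSGc library, whereas replicate 1 lay above all of them except P10 SCM, and its counting interval (36.4 to 39.7 TPM) overlapped that of P10 SCM (38.6 to 42.6 TPM). The groups thus overlapped. *Egfr* was 3.49 times as high in replicate 1 as in the mean of the other two replicates, and was the member that differed most in this direction. It was the 1 member at least 2-fold higher in replicate 1 (19.6% of genes), and *Areg* (0.494) and *Epgn* (0.314) were the 2 members at least 2-fold lower (7.33% of genes).

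With all 3 IMOK libraries, *Egfr* was 30.2 ± 7.46 TPM in mSGc (SD, n = 6) against 19.9 ± 15.7 TPM in IMOK (SD, n = 3), a log2 fold change of 0.85 ± 0.36 (SE) with an edgeR adjusted p of 0.145. Without replicate 1 the log2 fold change was 1.61 and the adjusted p 0.0032, so the call rested on that library. The comparison of the 2 P10 libraries alone, which the study singled out, gave 1.11 ± 0.53 (SE, edgeR adjusted p = 0.255) with replicate 1 and 1.85 (edgeR adjusted p = 0.00601) without it. The P10 fit without replicate 1 called 3416 of 12602 genes, against 547 of 13018 with it. The study itself lists *Egfr* and *Ereg* among genes enriched in mSGc, a list drawn up partly on these libraries, so their direction is not independent of that choice.

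*Erbb2* encodes the ligandless partner. It was the receptor that varied least among mSGc libraries in SFM, at 26.5 TPM in P2, 30.6 in P4, 28.2 in P10 and 32.3 in P25. In SCM it was 58.0 TPM at P10 and 40.7 TPM at P25, above every SFM library. The IMOK replicates, at 47.0, 37.2 and 30.9 TPM, lay within the range of mSGc. The log2 fold change of all mSGc over IMOK was 0.13 ± 0.23 (SE, edgeR adjusted p = 0.755), and 0.23 without IMOK replicate 1.

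*Erbb3*, the neuregulin receptor, was the receptor with the widest range in mSGc. It was 27.6 TPM in P2, 17.0 in P4, 32.9 in P10 SFM, 78.6 in P10 SCM, 11.1 in P25 SFM and 26.1 in P25 SCM, against 25.6, 27.7 and 16.1 TPM in IMOK. P10 SCM was the highest of the 9 libraries and P25 SFM the lowest. Both P10 libraries lay above all IMOK libraries, while the full set of mSGc libraries overlapped IMOK. For P10 against IMOK the log2 fold change was 1.42 ± 0.38 (SE) with an edgeR adjusted p of 0.0948. DESeq2 put the same comparison at 1.40 with an adjusted p of 0.0141, so the call depended on the tool. The edgeR value was 1.43 without IMOK replicate 1 (adjusted p = 0.0627). It was 0.76 without P10 SCM and 1.85 without P10 SFM, fits that leave a single mSGc library. Over all mSGc libraries the log2 fold change was 0.64 ± 0.47 (SE, edgeR adjusted p = 0.395), and 0.66 without IMOK replicate 1.

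The fourth receptor gene and the neuregulin genes were looked at beside the members. *Erbb4* had 0 counts in all 9 libraries, which allows a level of up to 0.224 TPM in the shallowest library. *Nrg1*, a neuregulin that ERBB3 binds, was present throughout, from 10.7 TPM in P2 to 38.5 TPM in IMOK replicate 3. *Nrg2* reached 8.23 TPM in P25 SFM and was between 0.267 and 2.74 TPM elsewhere. *Nrg4* stayed between 0.33 and 0.924 TPM, and *Nrg3* had at most 1 count in any library. Of these 5 genes 3 were tested, and none passed edgeR's threshold between mSGc and IMOK.

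Among the ligands, *Ereg* and *Tgfa* separated the 2 lines. *Ereg* encodes epiregulin, which binds the EGF receptor and ERBB4. It was 35.3 TPM in P2, 30.2 in P4, 11.8 in P10 SFM, 24.9 in P10 SCM, 16.8 in P25 SFM and 22.8 in P25 SCM. IMOK replicates 1 and 2 had 0 counts and replicate 3 had 2 counts, or 0.0603 TPM. Every mSGc library had at least 224 counts, and the groups did not overlap. Against a floor of 3 counts in each IMOK library, the mean level in mSGc was at least 273-fold higher, and that of the P10 libraries at least 212-fold higher. The fitted log2 fold change was 10.14 ± 0.74 (SE, edgeR adjusted p = 5.31e-05) for all mSGc, a value that depends on the prior count. For P10 it was 9.74 ± 0.95 (SE, edgeR adjusted p = 0.0119). It was 10.13 without P10 SFM and 9.18 without P10 SCM, fits that leave a single mSGc library and cannot decide a call. Without IMOK replicate 2 it was 9.19 (edgeR adjusted p = 0.0589), in a fit that called 36 of 12717 genes. Without IMOK replicate 1 the calls held, at 9.58 for all mSGc (edgeR adjusted p = 0.000311) and 9.16 for P10 (edgeR adjusted p = 0.00601).

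*Tgfa* encodes TGF-alpha, an EGF receptor ligand of many epithelia. Its level was 22.8 TPM in P2, 14.2 in P4, 25.4 in P10 SFM, 21.6 in P10 SCM, 19.6 in P25 SFM and 21.3 in P25 SCM, against 52.9, 46.0 and 40.6 TPM in IMOK. All IMOK libraries lay above all mSGc libraries. The group means were 20.8 ± 3.75 TPM (SD, n = 6) and 46.5 ± 6.19 TPM (SD, n = 3), a ratio of 0.448. *Tgfa* was lower in mSGc, with a log2 fold change of -0.94 ± 0.17 (SE, edgeR adjusted p = 0.00589), and -0.90 without IMOK replicate 1 (adjusted p = 0.0167). In the P10 libraries alone the value was -0.80 ± 0.21 (SE, edgeR adjusted p = 0.0863), while DESeq2 gave -0.83 with an adjusted p of 0.00717. Without IMOK replicate 1 the edgeR value for P10 was -0.77, past the threshold with an adjusted p of 0.0404, in the fit that called 3416 of 12602 genes.

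Over the 10 members, 1 was called higher (*Ereg*) and 1 lower (*Tgfa*) in all mSGc against IMOK, where 6.58% of the 12885 genes tested were called higher and 8.30% lower. 3 of the 10 had an unadjusted edgeR p under 0.05, as did 3922 of the 12885 genes. The same 2 members were those whose TPM did not overlap between the groups, against 5.22% of all genes higher and 17.0% lower without overlap. By CPM with TMM factors they were again the members without overlap, against 9.70% and 11.1% of genes. These counts lie near these backgrounds. In the P10 libraries 1 member was called higher and 0 lower by edgeR, against 2.34% and 1.87% of 13018 genes. 4 members had an unadjusted edgeR p under 0.05 there, as did 3244 of the 13018 genes. Without IMOK replicate 1, edgeR called 2 members higher in P10 (*Egfr* and *Ereg*) and 3 lower (*Tgfa*, *Epgn* and *Egf*). That fit called 1760 genes higher and 1656 lower of 12602. With every library, DESeq2 called 2 higher (*Erbb3* and *Ereg*) and 2 lower (*Tgfa* and *Egf*), where it called 8.52% of genes higher and 8.62% lower. Without overlap in TPM were *Erbb3* and *Ereg* above IMOK (16.3% of all genes) and *Tgfa*, *Epgn* and *Egf* below it (28.8%). On the scale of library-scaled counts with TMM factors (CPM), *Egfr* joined the first and *Epgn* left the second, where 22.1% of genes were higher and 23.0% lower without overlap. The 2 comparisons share the IMOK libraries, and the P10 libraries are also part of all mSGc.

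**Figure D2:**
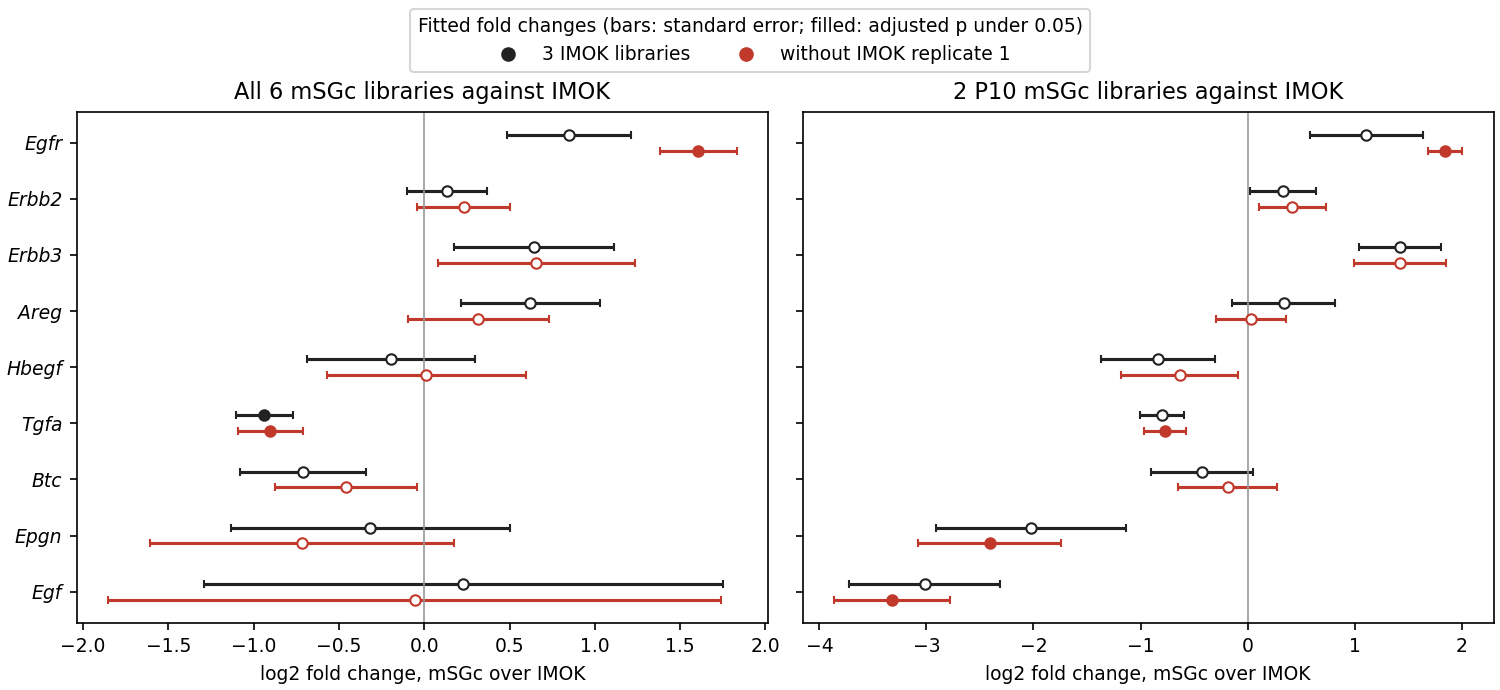
Fitted log2 fold change of mSGc over IMOK for 9 members, with standard error, for all 6 mSGc libraries (left) and the 2 P10 libraries (right), with the 3 IMOK libraries (black) and without IMOK replicate 1 (red). Filled points passed an edgeR adjusted p of 0.05. *Egfr* moved from 0.85 to 1.61 on the left without replicate 1, and *Ereg*, at 10.14, is off the scale and is not drawn.

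*Areg* encodes amphiregulin, a heparin-binding EGF receptor ligand. It was 167 TPM in P2, 106 in P4, 55.3 in P10 SFM, 101 in P10 SCM, 69.1 in P25 SFM and 50.2 in P25 SCM, and 39.7, 65.6 and 95.4 TPM in the IMOK replicates. It had the highest level of the 7 ligands in 8 of 9 libraries, the exception being IMOK replicate 1, where *Tgfa* was higher. *Areg* made up 41.8% to 56.3% of the summed ligand TPM in mSGc and 24.7%, 40.0% and 46.4% in IMOK. As a share of ligand counts that were not divided by gene length, the range in mSGc was 19.8% to 32.8%. By these counts *Tgfa* was ahead of *Areg* in P10 SFM (41.1% against 25.4%), P25 SCM (29.6% against 19.8%) and all IMOK replicates. *Ereg* was also ahead in P25 SCM (31%), and *Areg* and *Tgfa* were level in P25 SFM (28.8%). The rank of *Areg* thus depended on the division by length. The fold change of *Areg* against IMOK did not pass the test (log2 0.62 ± 0.41 SE, edgeR adjusted p = 0.337), and was 0.32 without IMOK replicate 1.

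*Hbegf*, the gene of heparin-binding EGF-like growth factor, was highest in P2 at 47.8 TPM. The other mSGc libraries had 23.5 TPM (P4), 8.06 (P10 SFM), 19.5 (P10 SCM), 13.1 (P25 SFM) and 12.7 (P25 SCM), and IMOK had 37.6, 13.8 and 30.99 TPM. The groups overlapped, with a log2 fold change of -0.20 ± 0.49 (SE, edgeR adjusted p = 0.830) that turned to 0.01 without IMOK replicate 1. *Btc* encodes betacellulin, which binds the EGF receptor and ERBB4. It was 10.3, 8.40, 5.29 and 3.52 TPM in SFM at P2, P4, P10 and P25, 14.6 and 5.76 TPM in SCM at P10 and P25, and 21.3, 13.1 and 10.8 TPM in IMOK. P10 SCM alone overlapped IMOK, and the log2 fold change was -0.71 ± 0.37 (SE, edgeR adjusted p = 0.223), and -0.46 without IMOK replicate 1. In the P10 libraries none of *Erbb2*, *Areg*, *Hbegf* and *Btc* was called, at log2 fold changes of 0.33, 0.34, -0.83 and -0.42, and at 0.42, 0.03, -0.63 and -0.18 without IMOK replicate 1. These P10 values ran from -1.51 to -0.40 for *Hbegf* and from -1.24 to 0.06 for *Btc* when each library was left out in turn, the lowest being those without P10 SCM.

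*Epgn* encodes epigen, a ligand of low affinity for the EGF receptor. It had the widest spread among mSGc libraries after *Egf*. It was 13.1 TPM in P2, 38.5 in P4, 1.40 in P10 SFM, 6.77 in P10 SCM, 6.42 in P25 SFM and 7.29 in P25 SCM, and 7.23, 21.6 and 24.5 TPM in IMOK. The P4 value was 27.4 times that of P10 SFM (counting interval 15.2 to 55.2), which rests on 11 counts. Against IMOK the log2 fold change was -0.32 ± 0.82 (SE, edgeR adjusted p = 0.836) over all mSGc and -2.03 ± 0.89 (SE, edgeR adjusted p = 0.225) in the P10 libraries. Without IMOK replicate 1 the P10 value was -2.41 (edgeR adjusted p = 0.0497), in the fit that called 3416 of 12602 genes. Over all mSGc the value was -0.72 without IMOK replicate 1, -1.19 without P4 and 0.03 without IMOK replicate 3, so that single libraries set its size and direction. The P10 value was -3.47 without P10 SCM and -1.37 without P10 SFM.

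*Egf* itself was nearly silent in mSGc except at P4. It had 8 counts in P2 (0.318 TPM), 708 in P4 (16.6 TPM), 10 in P10 SFM (0.457 TPM), 7 in P10 SCM (0.233 TPM), 7 in P25 SFM (0.173 TPM) and 1 in P25 SCM (0.0669 TPM). The IMOK replicates had 1.92, 3.90 and 3.46 TPM, between the P4 library and the others. P4 was 52.2 times P2 (counting interval 26.3 to 121). Over all mSGc the log2 fold change against IMOK was 0.23 ± 1.52 (SE, edgeR adjusted p = 0.938), and without the P4 library it was -3.42 (edgeR adjusted p = 0.0078), so the P4 library decided both direction and call. It was -0.06 without IMOK replicate 1. In the P10 libraries *Egf* was at -3.01 ± 0.70 (SE, edgeR adjusted p = 0.0723), while DESeq2 gave -3.06 with an adjusted p of 0.000864. The edgeR fit without IMOK replicate 1, which called 3416 of 12602 genes, gave -3.32 for *Egf* (adjusted p = 0.016). The edgeR value was -3.67 without P10 SFM.

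Other products of the granular convoluted tubule were also high in the P4 library. The list held 9 genes, mostly tissue kallikreins, serine proteases of the *Klk1* family that are secreted into saliva. Their summed level was 121.5 TPM in P4, 3.12 in P2 and 34.5 in P10 SCM, and all 9 had 0 counts in P10 SFM, P25 SFM and P25 SCM, which allows at most 1.2 TPM for any 1 of them. Thus P4 was the highest mSGc library for the list as for *Egf*. The level in P4 was 38.1 TPM for *Klk1b9*, 19.9 for *Klk1b22*, 17.0 for *Klk1b16*, 16.3 for *Klk1b4* and 10.3 for *Klk1b3*, each the highest of the 9 libraries. *Klk1* was 18.0 TPM in P4 but 23.3 TPM in P10 SCM, where *Egf* had 7 counts. IMOK summed to 3.97, 37.6 and 33.7 TPM, and replicate 1, the lowest of the 3 for *Egf*, was also lowest here. *Ren1* and *Klk1b26* had 0 counts everywhere. *Smgc*, listed with these genes but not taken here as a product of that tubule, was at most 1.76 TPM. Of the 9 genes 6 were tested against IMOK and none was called, in all mSGc or in P10. The kallikrein genes are near-identical copies, so reads may be split among them, and whether these transcripts came from a subset of cells was not tested.

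**Figure D3:**
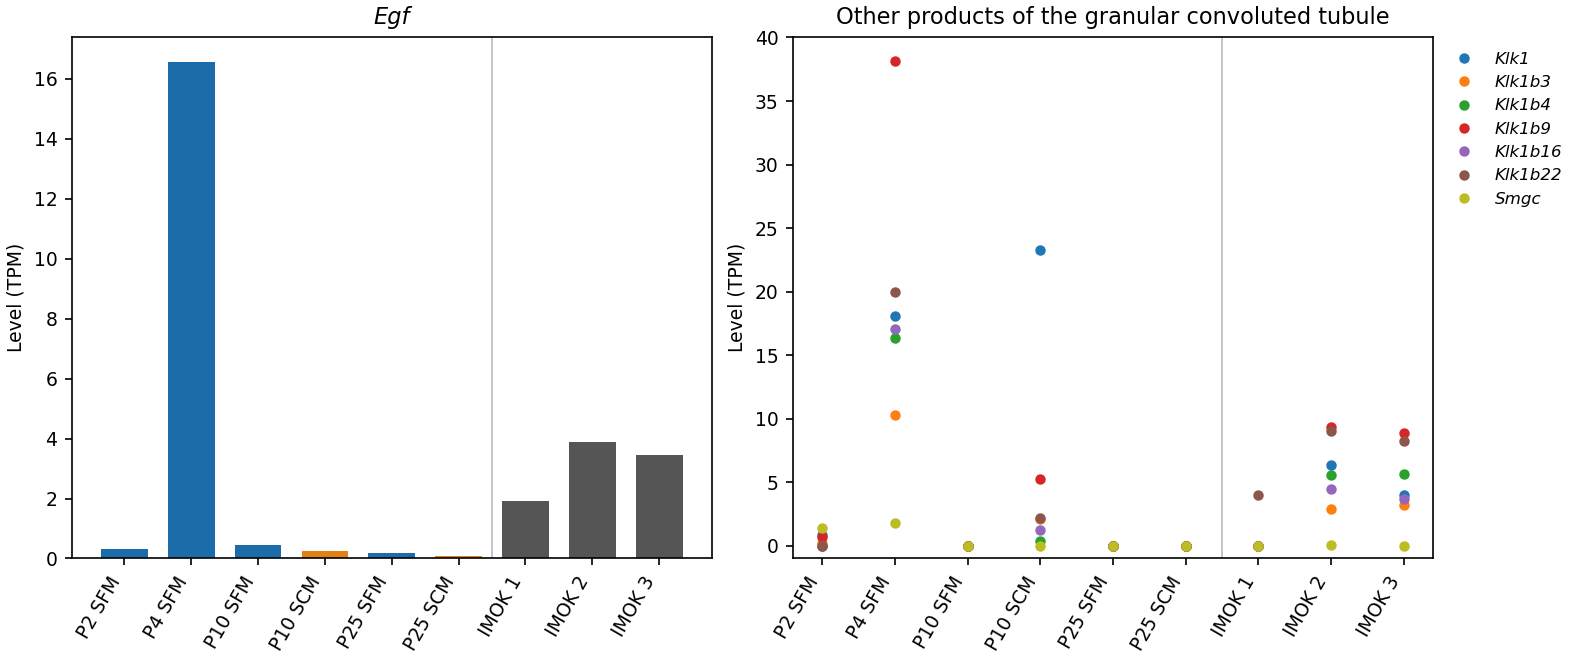
Level (TPM) of *Egf* (left, bars) and of 7 other genes of the tubule list, kallikreins and *Smgc* (right, points), in the 6 mSGc and 3 IMOK libraries. *Egf* reached 16.6 TPM in P4 SFM, where *Klk1b9* reached 38.1 TPM, and both were below 1 TPM in P2, P10 SFM and both P25 libraries.

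The summed levels of the ligand and receptor members differed between the libraries. These sums do not match ligands to their receptors. ERBB2 binds no known ligand, ERBB3 binds neuregulins, and the neuregulin genes are not in the ligand sum. The summed ligand level was 296 TPM in P2, 238 in P4, 108 in P10 SFM, 189 in P10 SCM, 129 in P25 SFM and 120 in P25 SCM, and 161, 164 and 206 TPM in IMOK. The summed receptor level was 85.3, 70.3, 93.8, 177, 63.7 and 100 TPM in the same order, and 111, 76.3 and 57.4 TPM in IMOK. Ligand transcripts outnumbered receptor transcripts in every library, by 3.48 to 1 in P2 and by 1.06 to 1 in P10 SCM. P10 SCM had the highest receptor sum of the 9 libraries, and *Erbb3* was its largest part. In IMOK the ratio was 1.45, 2.15 and 3.59, a range that overlapped that of mSGc.

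**Figure D4:**
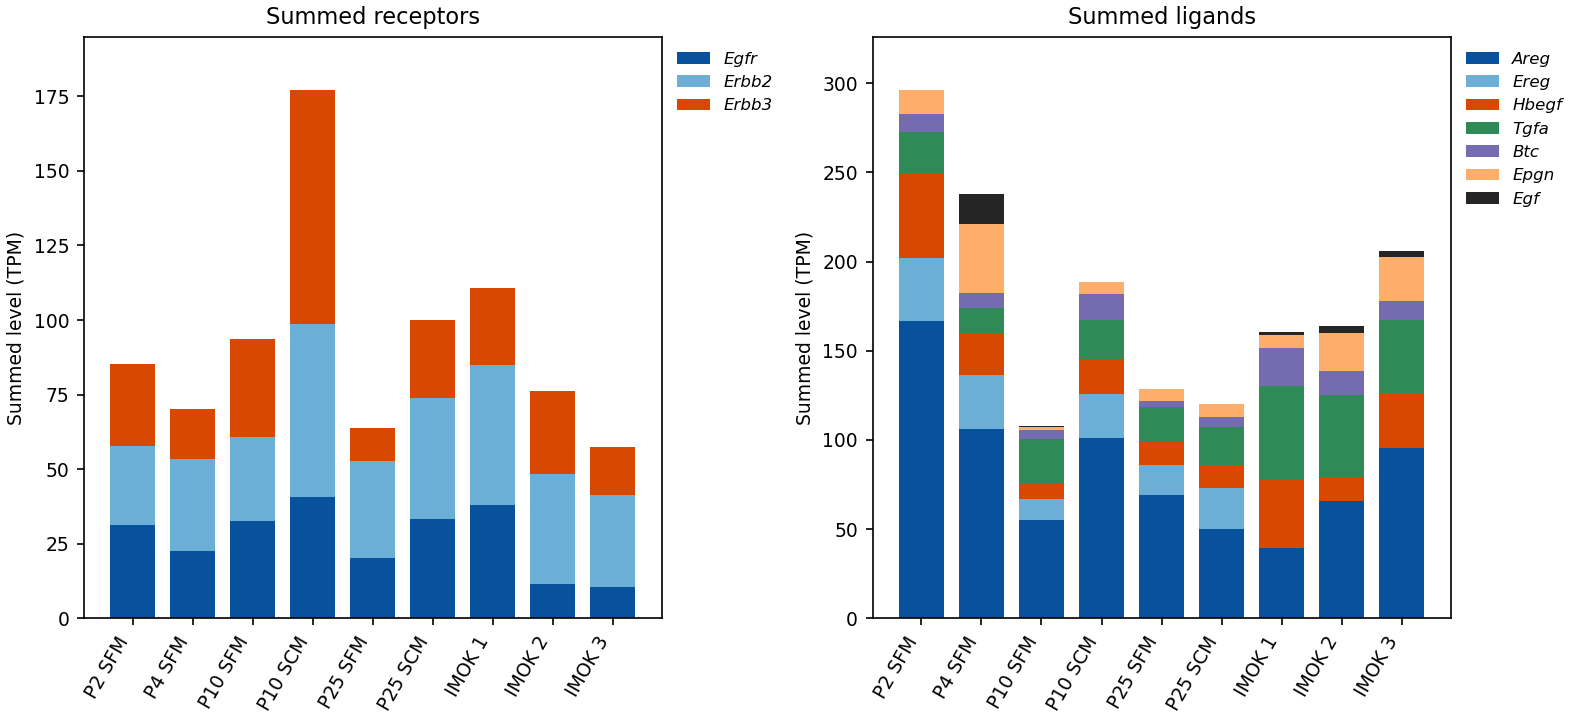
Summed TPM of the 3 receptor genes (left) and the 7 ligand genes (right) in each library, with each gene as a stacked segment. The receptor sum was highest in P10 SCM (177 TPM) and the ligand sum in P2 (296 TPM), and the *Ereg* segment, 10.9% to 19.0% of the ligand sum in mSGc, cannot be seen in IMOK.

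Passage was examined in a joint fit with medium over the 6 mSGc libraries. 5 of the 7 ligands (*Areg*, *Ereg*, *Hbegf*, *Epgn* and *Egf*) had their highest mSGc level at P2 or P4. How many of all genes did so was not counted, so this is not read as a trait of the ligands. From P2 to P25 in SFM, *Erbb3*, *Areg*, *Ereg*, *Hbegf*, *Btc* and *Epgn* were at least 2-fold lower, 6 of 10 members where 19.8% of all genes tested were, and 0 members were at least 2-fold higher (5.74% of all genes, leaving out genes with at most 3 counts in both libraries). *Hbegf* was at 0.273 times its P2 level (counting interval 0.236 to 0.317), *Btc* at 0.341 (0.259 to 0.446) and *Areg* at 0.414 (0.376 to 0.456). These are ratios of 1 library to 1 library with no replicate check. Step by step in SFM, *Epgn* and *Egf* were at least 2-fold higher in P4 than in P2 (2.84% of genes) and *Hbegf* was lower (11.3%). From P4 to P10, *Ereg*, *Hbegf*, *Epgn* and *Egf* were at least 2-fold lower (9.11% of genes) and no member was higher (11.2%). From P10 to P25, *Epgn* was higher (7.04% of genes) and *Erbb3* and *Egf* lower (17.0%). The order was not steady, since *Areg*, *Ereg*, *Hbegf* and *Epgn* were each lower in P10 SFM than in P25 SFM. In the joint fit no member was called, against 0.0482% of genes higher and 0.442% lower with passage. The log2 change per doubling of passage number was -0.44 ± 0.13 for *Btc*, -0.47 ± 0.16 for *Hbegf* and -0.34 ± 0.12 for *Areg* (SE). These were the 3 members with an unadjusted edgeR p under 0.05, which 1648 of the 12451 genes also had. The adjusted p-values of the 3 members were 0.237, 0.268 and 0.278. DESeq2 called 0 members, where it called 0.972% of genes higher and 4.65% lower. P2 also had the highest fibroblast marker sum, and its part in these values was not tested.

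The 2 media could be compared at P10 and at P25, with 1 library each. At P10, *Erbb2*, *Erbb3*, *Ereg*, *Hbegf*, *Btc* and *Epgn* were at least 2-fold higher in SCM than in SFM, 6 of 10 members where 10.7% of genes were, and 0 were at least 2-fold lower (5.70% of genes). At P25 only *Erbb3* among the members was at least 2-fold higher (6.39% of genes) and *Egf*, with 1 count against 7, was lower (5.68% of genes), at a ratio of 0.387 whose counting interval ran from 0.00858 to 3.01. *Erbb3* was 2.39 times as high in SCM at P10 (counting interval 2.18 to 2.62) and 2.36 times at P25 (2.03 to 2.75). *Btc* was 2.76 times as high in SCM at P10 and 1.64 times at P25, and *Egfr* 1.24 and 1.64 times. *Areg* went in opposite directions, at 1.83 (1.60 to 2.09) and 0.727 (0.616 to 0.854), and *Tgfa* stayed near even, at 0.849 and 1.09. In the joint fit the SCM minus SFM log2 difference was 1.40 ± 0.47 for *Erbb3* and 1.00 ± 0.35 for *Btc* (SE), with unadjusted edgeR p-values of 0.0201 and 0.0260 and adjusted p-values of 0.449 and 0.503. Without P10 SCM the *Erbb3* difference was 0.56, and over all libraries left out in turn it ran from there to 1.84. No member was called by edgeR or DESeq2, where edgeR called 0.0241% of genes higher and 0% lower, and DESeq2 1.55% and 0.626%. *Krt8*, a luminal keratin picked from the epithelial markers after its values were seen, went the same way as *Erbb3*, from 672 TPM in P10 SFM to 3743 TPM in P10 SCM and from 1172 to 2154 TPM at P25. *Krt5*, from the same markers, went the other way at P10, from 9214 TPM in SFM to 3910 TPM in SCM, and also at P25. *Krt14* was at 4728 TPM in P10 SFM and 5903 TPM in P10 SCM, and went the other way from *Krt8* at P25. The highest level of *Krt5* and *Krt14* in all libraries was in P25 SFM, at 9386 and 9091 TPM. The sum of the 7 epithelial markers was higher in SCM at P10 (18180 against 16110 TPM) and lower at P25 (13130 against 21100 TPM), and the part of these cells in the result was not tested.

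The neighbours of the ligand cluster were described within 1 Mb on either side, leaving out 8 entries that span 5 Mb or more. Of 33 other gene entries there, 21 were tested in all mSGc against IMOK, and their median log2 fold change was -0.56, beside -0.563 over the 823 tested genes of chromosome 5 and 0.0023 over all genes. 6 of the 21 were called, 5 of them lower in mSGc, where 14.9% of all genes were called and 8.30% were called lower. The share for chromosome 5 alone was not taken. The lower genes were *Cox18* (-1.50), *Afp* (-5.56), *Rassf6* (-2.76), *Parm1* (-2.45) and *G3bp2* (-0.76), and the higher one was the chemokine gene *Cxcl1* (1.33). *Ereg* stood apart from its neighbours *Epgn* (-0.32), *Areg* (0.62) and *Btc* (-0.71), which lie 39.4 kb before it, 46 kb after it and beyond *Areg*. Relative to the chromosome's median, *Epgn* and *Areg* were above it and *Btc* below it. Whether the copy number of the chromosome moved with these values was not tested.

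**Figure D5:**
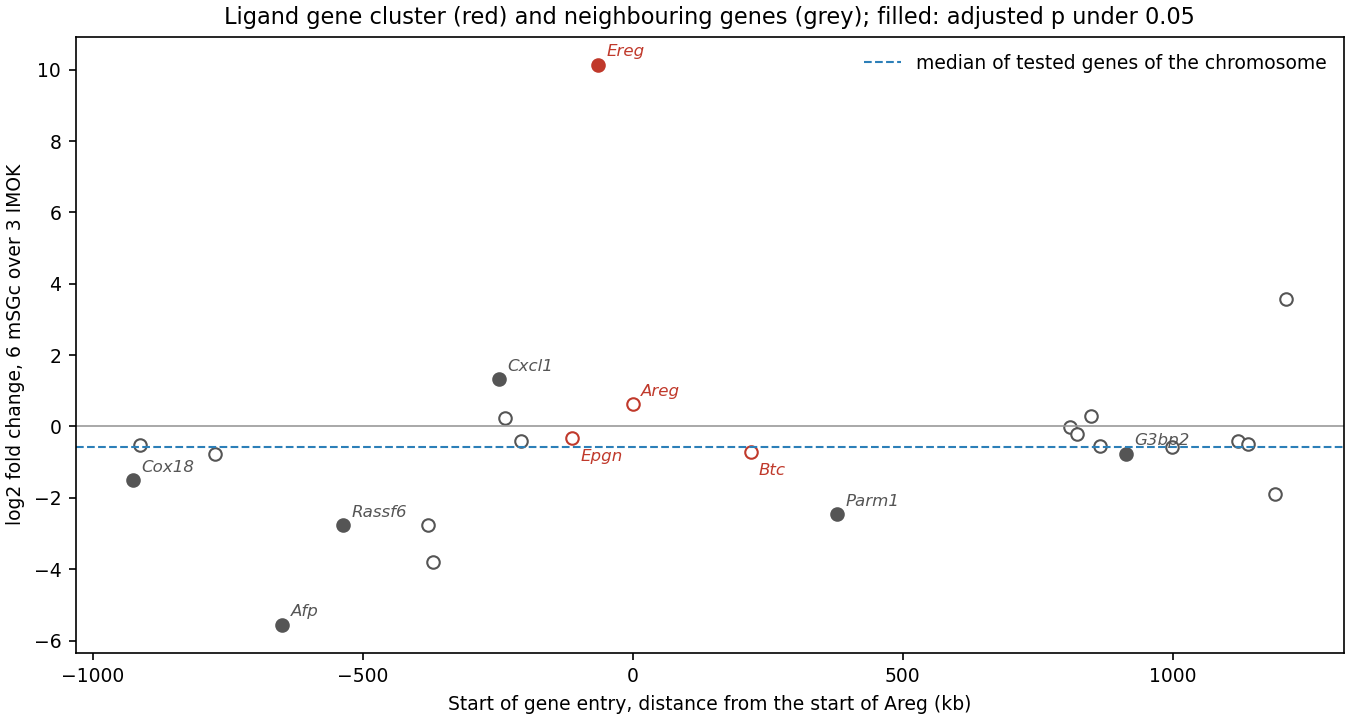
Log2 fold change of 6 mSGc over 3 IMOK libraries for the 4 ligand genes of the cluster (red) and the 21 tested neighbours (grey), against the distance of each gene entry's start from that of *Areg* in kb. Filled points passed an edgeR adjusted p of 0.05 and the dashed line is the median of the chromosome, -0.563. *Ereg* stands at 10.14 and the other 3 ligands between -0.71 and 0.62.

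Of 54 tested genes in 4 lists that act with the receptors and ligands, 8 were called in all mSGc against IMOK (14.8%), beside 14.9% of all genes. Of 10 tested genes for ligand shedding and trafficking, 2 were higher and 1 was lower in all mSGc (median log2 fold change 0.13). *Rhbdl2*, a rhomboid protease, was higher by 3.0 ± 0.33 (SE, edgeR adjusted p = 0.000524), at 15.96 to 31.04 TPM in mSGc and 2.51 to 4.29 TPM in IMOK. *Rhbdf2*, the iRhom partner of the sheddase ADAM17, was higher by 0.87 ± 0.22 (edgeR adjusted p = 0.0255), and *Cnih4*, a cargo receptor of the early secretory pathway, was at -1.02 ± 0.22 (edgeR adjusted p = 0.0135). In the P10 libraries *Rhbdl2* alone of this list was called, at 3.16 (edgeR adjusted p = 0.0301).

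Of 12 genes for receptor inhibition and degradation, 1 was called in all mSGc, *Socs5*, which was lower by a log2 fold change of -0.74 ± 0.18 (edgeR adjusted p = 0.021). In the P10 libraries 2 were called. *Lrig1*, an inhibitor that marks EGF receptors for destruction, was at -1.83 ± 0.26 (edgeR adjusted p = 0.0282), with 5.74 and 6.81 TPM in P10 and 22.2, 27.3 and 24.9 TPM in IMOK. In P2, at 28.4 TPM, it was above all IMOK libraries. *Cbl*, a ubiquitin ligase of the same receptor, was at 1.20 ± 0.22 (edgeR adjusted p = 0.0461).

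Of 16 adaptors and members of the RAS to ERK relay, *Gab1* (-1.15 ± 0.27, edgeR adjusted p = 0.0192) and *Ptpn11* (-0.65 ± 0.17, edgeR adjusted p = 0.0292) were lower in all mSGc and none was called in P10. *Gab1* encodes a docking protein below the receptor and *Ptpn11* the phosphatase SHP2 that binds it. Of 16 output and feedback genes of ERK, *Ier3* was higher in all mSGc (1.31 ± 0.20, edgeR adjusted p = 0.00307) and in P10 (1.39, edgeR adjusted p = 0.0269), and the inhibitor *Spred1* was lower in all mSGc (-1.15 ± 0.18, edgeR adjusted p = 0.00343). The median log2 fold changes of these lists in all mSGc were 0.09 for inhibitors, -0.09 for adaptors and -0.26 for output genes, beside 0.0023 over all genes. No gene of these lists was called with passage or medium.

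Leaving out each of the 9 libraries in turn, the edgeR calls of *Ereg*, *Tgfa*, *Rhbdl2*, *Ier3* and *Spred1* in all mSGc were kept every time. *Rhbdf2*, *Cnih4* and *Socs5* lost theirs without IMOK replicate 2 (adjusted p = 0.127, 0.0664 and 0.117) or without IMOK replicate 3 (0.103, 0.0678 and 0.0904). *Gab1* lost its call without IMOK replicate 1 (edgeR adjusted p = 0.0636) or 2 (0.0532), and *Ptpn11* without any P10 or P25 library or without IMOK replicate 2 or 3 (edgeR adjusted p = 0.0523 to 0.127). In P10 against IMOK, *Rhbdl2*, *Ier3*, *Lrig1* and *Cbl* each lost the call without IMOK replicate 2 or 3. Those fits called 36 and 69 genes in all, against 547 with every library. Fits without a P10 library leave a single mSGc library and cannot decide a call.

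The genes whose pattern over the 9 libraries was nearest to that of 2 members were sought among 12875 genes, by the mean absolute difference between log2(TPM + 1) values centred on each gene's mean. For *Egfr* they were *Dopey2* (0.126), *Repin1* (0.146) and *Hectd3* (0.175), where the median gene was at 0.637. For *Areg* they were *Myadm* (0.211), *Pcdh19* (0.218) and *Gpr63* (0.227), where the median gene was at 0.625. *Pcdh19* was low, at 0.106 to 2.06 TPM, as was *Gpr63*, at 0.545 to 3.11 TPM. At such levels the added 1 shrinks differences between libraries. These likenesses rest on 9 libraries that differ in line, passage and medium at once.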

How the data were processed

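RNA-seq was measured in 6 mSGc and 3 IMOK libraries. The authors deposited raw read counts per gene in 2 tables, and each table also gives the gene length that the authors' counting used. Per the submitters' processing notes, which give no order, TopHat2 2.1.1, Bowtie2 2.2.6, featureCounts 1.5.1 and DESeq2 1.12.4 were used with mm9. Strandedness and the handling of reads with several matches were not given in the sources used here. The libraries of other cell lines and tissues were not analysed here. SFM and SCM were matched to the labels' media from the study's own names of these libraries.

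TPM was computed from counts and lengths. Counts were tested in R 4.3.3 with edgeR 4.0.16 (quasi-likelihood test, TMM, default filterByExpr, Benjamini-Hochberg at 0.05 over all genes tested), and each adjusted p is from edgeR unless another tool is named. The fits were all mSGc against IMOK (12885 genes), P10 mSGc against IMOK (13018 genes) and a joint fit of log2 passage number and medium in mSGc (12451 genes). Standard errors are the absolute log2 fold change over the square root of F. DESeq2 1.42.0, limma voom 3.58.1, library sizes without TMM, other filters and leaving out each library were alternatives. Exact 95% intervals cover counting error only, and a count of 0 was bounded at 3 counts. On simulated counts, 135 of 196 changed genes were recovered in the first fit, 80 of 198 in the P10 fit, 163 of 200 for passage and 124 of 199 for medium, none in the wrong direction, with 5, 3, 18 and 13 false calls. The changed genes had median absolute log2 changes of 2.01, 2.03, 0.991 (per doubling of passage number) and 2.03 in these fits. Recovery of smaller changes was not simulated. All 10 members were named; from the lists, called genes were named, at most 4 a list. 1 gene of the list of granular convoluted tubule products is not reported here. The members and lists were chosen with earlier results of these data known. Figures used matplotlib 3.10.9, and tables Python 3.11.15.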

Additional observations from a re-analysis of the deposited data

Results flagged for a closer look

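Dixon's criterion at 95%, which chance meets in about 1 in 20 groups, was applied to both ends of 12 quantities (24 tests) over the 6 mSGc libraries, which are different conditions and not replicates. 1 library lay far from the others for 3 members. *Erbb3* was 78.6 TPM in P10 SCM, and the summed receptor level, which contains it, was 177 TPM in the same library. *Epgn* was 38.5 TPM and *Egf* was 16.6 TPM in P4 SFM. *Areg* was 1.83 times as high in SCM as in SFM at P10 and 0.727 times at P25, opposite directions whose difference was not tested, as each condition has 1 library.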

How the results depend on the processing

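No paired analysis was possible because, for mSGc against IMOK, the mSGc libraries carry no replicate numbers that the IMOK libraries share; the media could be paired only by passage, at P10 and P25. Over the alternatives, 446 of 479 fits of single members kept the direction and the side of the threshold. The filter of at least 10 counts in every library leaves *Ereg* out, so 0 members were then called higher in either comparison with IMOK. With DESeq2 in P10 against IMOK 2 members were called higher and 2 lower, where DESeq2 called 8.52% and 8.62% of all genes. Leaving out 1 library at a time gave 1 to 2 members higher and 1 to 2 lower for all mSGc, and 0 to 2 higher and 0 to 3 lower for P10.

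For all genes, all mSGc against IMOK gave 1918 calls, 2900 with DESeq2 and 738 to 1918 with 1 library left out. P10 against IMOK gave 547 calls, 2231 with DESeq2, 272 with the filter of 10 counts and 0 to 3416 with 1 library left out. Passage gave 61 calls, 700 with DESeq2, 161 with no filter, 3 with the filter of 10 counts, 126 with untransformed passage number, 31 in SFM libraries only and 0 to 329 with 1 library left out. Medium gave 3 calls, 271 with DESeq2, 36 with no filter, 1 with the filter of 10 counts, 0 with limma voom, 123 from the P10 and P25 libraries blocked by passage, and 0 to 58 with 1 library left out. Without TMM factors the calls of all mSGc against IMOK were 663 higher and 1373 lower, against 848 and 1070 with them, and the median log2 fold change of all genes moved from 0.0023 to -0.105.

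Log2 fold changes that reversed were all uncalled, except that of *Egf* without the P4 library. In all mSGc against IMOK, *Egf* was -2.12 with limma voom, and with 1 library left out ran from -3.42 (without P4, adjusted p = 0.0078) to 0.48, at -0.06 without IMOK replicate 1. There *Erbb2* ran from 0.00 to 0.23, *Hbegf* from -0.58 to 0.01 and *Epgn* from -1.19 to 0.03. In P10 against IMOK, *Erbb2* ran from -0.19 to 0.69, *Areg* from -0.08 to 0.72 and *Btc* from -1.24 to 0.06. With passage, *Egfr* ran from -0.09 to 0.05 and *Erbb2* from -0.02 to 0.12. With medium, *Areg* was 0.01 without TMM and with limma voom, 0.06 from P10 and P25 alone and -0.34 to 0.66 with 1 library left out, *Hbegf* ran from -0.20 to 1.20, and *Epgn* was 0.97 from P10 and P25 alone and -0.95 to 0.28 with 1 library left out. The causes were not tested, beyond fewer genes or samples where the setting has them. *Egf*, with at most 10 counts in 5 mSGc libraries, and *Epgn*, with 11 counts in P10 SFM, are limited by depth.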
